A study of Mus musculus with 9 samples.

Results

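In total, 10 regulators of meiotic and spermatid transcription were examined as candidate targets of the long noncoding RNA Gm4665: Rfx1, Rfx2, Rfx3, Rfx4, Crem, Fhl5, Sox30, Mybl1, Tbpl1 and Brdt. They are 10 of 49603 RefSeq genes, chosen by name. Every deposited interval overlapping a gene's annotated span, or the 2 kb on either side of it, was taken as belonging to that gene. This gave 15 of the 38711 intervals retrieved with Gm4665 probes and 5 of the 9448 retrieved with LacZ control probes. Chromatin came from germ cells isolated from the testis of the ICR strain, wild-type, at postnatal day 35. There were 3 replicates each of Gm4665 probes, LacZ probes (against a bacterial gene that mice lack) and input DNA. After cross-linking and sonication, biotinylated probes that pair with an RNA pulled down the DNA attached to it. The 9 samples shared strain, genotype, tissue and age and differed only in what was retrieved. The titles call the captured RNA LncRNA-20, and its identity as Gm4665 rests on the protocol. Mixed germ cells were used, so a value belongs to no single stage. Only DNA was sequenced, so the cell type could not be checked against marker expression. No label ties replicates to individual animals, and their spread may be partly technical.

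Spermatids are made by a cascade of transcription factors that switches on genes used nowhere else in the body. RFX proteins are winged-helix factors that bind an inverted repeat called the X-box, found at many genes of cilia and of the sperm flagellum. CREM, aided by its testis coactivator FHL5 (also called ACT), drives post-meiotic genes such as those for protamines and transition proteins. A-MYB, encoded by Mybl1, acts earlier, at the pachytene stage of meiosis. SOX30 bridges meiosis and the round spermatid, TBPL1 is a relative of the TATA-binding protein needed for spermatid maturation, and BRDT is the testis member of the BET family, which reads acetylated histones.

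The promoters of the RFX genes are shown first, because the regulatory regions of target genes were the stated interest of the series and all 4 of these genes held a Gm4665 interval. None of those intervals lay over a promoter. Each line gives the RefSeq window of 300 bases in GRCm38.p6 (mm10), from 250 bases before to 50 after the annotated start, 5′ to 3′ on the gene's strand. Capitals mark an X-box form, the letters GNAACN directly followed by GTTGCC, and the CRE core TGACG, recognised by CREM and its relatives, each searched on both strands. The windows lie at chr8:84066586-84066885 (Rfx1, plus strand), chr17:56830959-56831258 (Rfx2, minus), chr19:28011117-28011416 (Rfx3, minus) and chr10:84755798-84756097 (Rfx4, plus, the outer of 2 listed starts).
Rfx1: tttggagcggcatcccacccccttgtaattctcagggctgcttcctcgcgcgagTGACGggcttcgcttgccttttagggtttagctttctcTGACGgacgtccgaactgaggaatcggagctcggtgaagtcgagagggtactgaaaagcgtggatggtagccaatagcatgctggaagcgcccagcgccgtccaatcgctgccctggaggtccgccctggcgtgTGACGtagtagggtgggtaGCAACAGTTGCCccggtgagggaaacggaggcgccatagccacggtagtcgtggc
Rfx2: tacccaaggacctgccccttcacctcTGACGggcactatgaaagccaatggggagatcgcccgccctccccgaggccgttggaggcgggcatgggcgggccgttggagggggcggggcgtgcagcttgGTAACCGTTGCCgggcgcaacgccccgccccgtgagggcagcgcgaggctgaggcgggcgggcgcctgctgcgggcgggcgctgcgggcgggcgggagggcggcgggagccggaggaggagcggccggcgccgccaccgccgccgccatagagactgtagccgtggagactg
Rfx3: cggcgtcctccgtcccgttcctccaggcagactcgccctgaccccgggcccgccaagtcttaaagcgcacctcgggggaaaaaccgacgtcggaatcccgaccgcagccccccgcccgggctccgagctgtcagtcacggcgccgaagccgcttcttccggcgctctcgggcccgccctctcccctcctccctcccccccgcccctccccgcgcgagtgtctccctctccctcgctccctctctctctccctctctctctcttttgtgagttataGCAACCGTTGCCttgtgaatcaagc
Rfx4: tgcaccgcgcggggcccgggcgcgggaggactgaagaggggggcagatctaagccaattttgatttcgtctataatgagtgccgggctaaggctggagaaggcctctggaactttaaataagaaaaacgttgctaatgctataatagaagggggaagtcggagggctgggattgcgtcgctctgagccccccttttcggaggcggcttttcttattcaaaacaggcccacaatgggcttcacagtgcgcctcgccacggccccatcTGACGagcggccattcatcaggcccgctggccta

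The promoters of Rfx1, Rfx2 and Rfx3 each held an X-box form. It began 5 bases before the start in Rfx1, as GCAACAGTTGCC, and 122 bases before it in Rfx2, as GTAACCGTTGCC. In Rfx3 it began at base 26 after the start, as GCAACCGTTGCC. Of 32851 promoters in the table, 25 (0.0761%) held this form, and they belonged to 25 genes, 3 of them RFX genes. The pattern was chosen after reading these sequences and is a description of the letters, not a binding site shown by the data. Its right part alone, GTTGCC, was held by 12.5% of all promoters and by the same 3 members. The CRE core was present at Rfx1, which had 3 copies, Rfx2 and Rfx4, against 20.8% of all promoters. Of the 10 listed promoters of 8 members, 2 held the MYB site CAGTTG (Rfx1, where it overlaps the X-box form, and the inner start of Rfx4), against 13.7% of all promoters. The SOX site ACAAT was found at Rfx4, Sox30 and Fhl5, against 31.0%, and the TATA box TATAAA at none, against 13.6%. The promoters of Crem and Mybl1 were not analysed here.

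No Gm4665 or LacZ interval covered a listed promoter of any of the 8 members in the table. Over the 27025 genes of the table, 1.98% had a Gm4665 interval and 0.788% a LacZ interval there, so 0 of 8 lies near that background. The nearest Gm4665 interval to a listed start lay at Fhl5, 3176 bp upstream, from 25246028 to 25246925 on chromosome 4, outside the 2 kb flank. Its folds over input were 16.0, 9.23 and 12.3 in replicates 1, 2 and 3 (mean 12.5 ± 3.40, SD, n = 3). At Rfx4 the nearest was 6392 bp upstream, with 7.51, 7.82 and 7.25 (mean 7.53 ± 0.289, SD, n = 3). For the other 6 members with a listed start the distance ran from 14459 bp at Rfx1 to 89716 bp at Brdt. LacZ intervals came closer to the start than Gm4665 intervals at 3 genes. They lay 3430 bp upstream of the Rfx3 start, 4249 bp upstream of the Rfx2 start and 6939 bp from the Brdt start.

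Of the 10 members, 6 held a Gm4665 interval: Rfx1, Rfx2, Rfx3, Rfx4, Crem and Sox30. Among all RefSeq genes 27.1% did, and among protein-coding genes 39.3%. Length has to be read with these shares, since a longer gene has more room for an interval. Between 25 and 50 kb, 50.4% of protein-coding genes held one, and so did 2 of 5 members (Rfx1 and Sox30, but not Mybl1, Tbpl1 or Fhl5). Between 50 and 100 kb the share was 69.0%, and 2 of 3 members held one (Rfx2 and Crem, but not Brdt). Rfx4, at 151 kb, and Rfx3, at 253 kb, belong to classes where 87.5% and 94.7% of genes held one. Presence of an interval in these genes is therefore close to that of other genes of their length. LacZ intervals lay in 5 members, Rfx2, Rfx3, Rfx4, Mybl1 and Brdt, against 16.9% of protein-coding genes and 10.6% of all genes. By length class the LacZ shares were 17.7%, 28.8%, 46.3% and 62.1%.

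**Figure D1:**
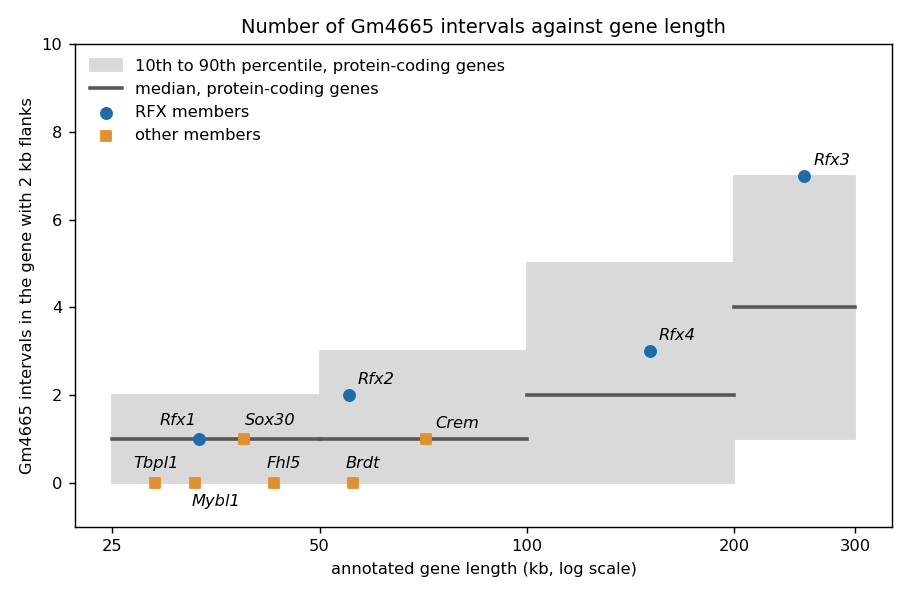
Number of Gm4665 intervals in each of the 10 genes with 2 kb flanks (vertical axis) against annotated gene length in kb (horizontal, log scale). Grey bands span the 10th to 90th percentile of protein-coding genes in 4 length classes and dark lines their medians; Rfx3, with 7 intervals, sits at the upper edge of its band and the other 9 members lie within theirs.

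The 4 RFX genes held 13 of the 15 Gm4665 intervals. In their windows, 508 kb in all, this was 25.6 intervals per Mb. The other 6 members held 2 in 295 kb, or 6.78 per Mb, and 4 of them held none. All windows of protein-coding genes together held 16.4 per Mb. With LacZ probes the RFX genes had 5.91 per Mb and the other members 6.78 per Mb, against 4.51 per Mb in coding windows. Rfx3 alone gave 7 of the 13, and without it the other 3 RFX genes had 6 intervals, 23.9 per Mb. These densities were not tested, since 10 genes chosen by name are no replicates. No Gm4665 interval of a member overlapped a LacZ interval. With overlapping intervals dropped, 26.9% of all genes still held a Gm4665 interval, beside 27.1% with them. A gene can keep another interval, so these shares do not tell how often intervals overlap. The share of all 38711 Gm4665 intervals that overlap a LacZ interval is not given. No background therefore stands beside the lack of overlap at the members. The smallest gap between the lists was 7996 bp, at Rfx2. LacZ signal at the Gm4665 intervals was not measured here, so it may be present below the threshold of that list.

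Positions within the genes are drawn in the map of the 10 members. Of the 15 Gm4665 intervals, 14 lay inside the gene and 1 outside it, beyond Rfx2. Only that 1 lay within 2 kb of a gene end, so 1 of 10 members was marked at an end, beside 12.6% of all genes and 14.2% of protein-coding genes. LacZ intervals likewise marked 1 member at an end, Rfx3, beside 4.14% of all genes and 4.78% of protein-coding genes. With windows of 5 kb, 4 of the 10 members had a Gm4665 interval at an end, beside 24.1% of all genes and 27.8% of protein-coding genes. Whether the 14 fall in exons or introns was not determined, because the annotation used gives gene spans and starts only.

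**Figure D2:**
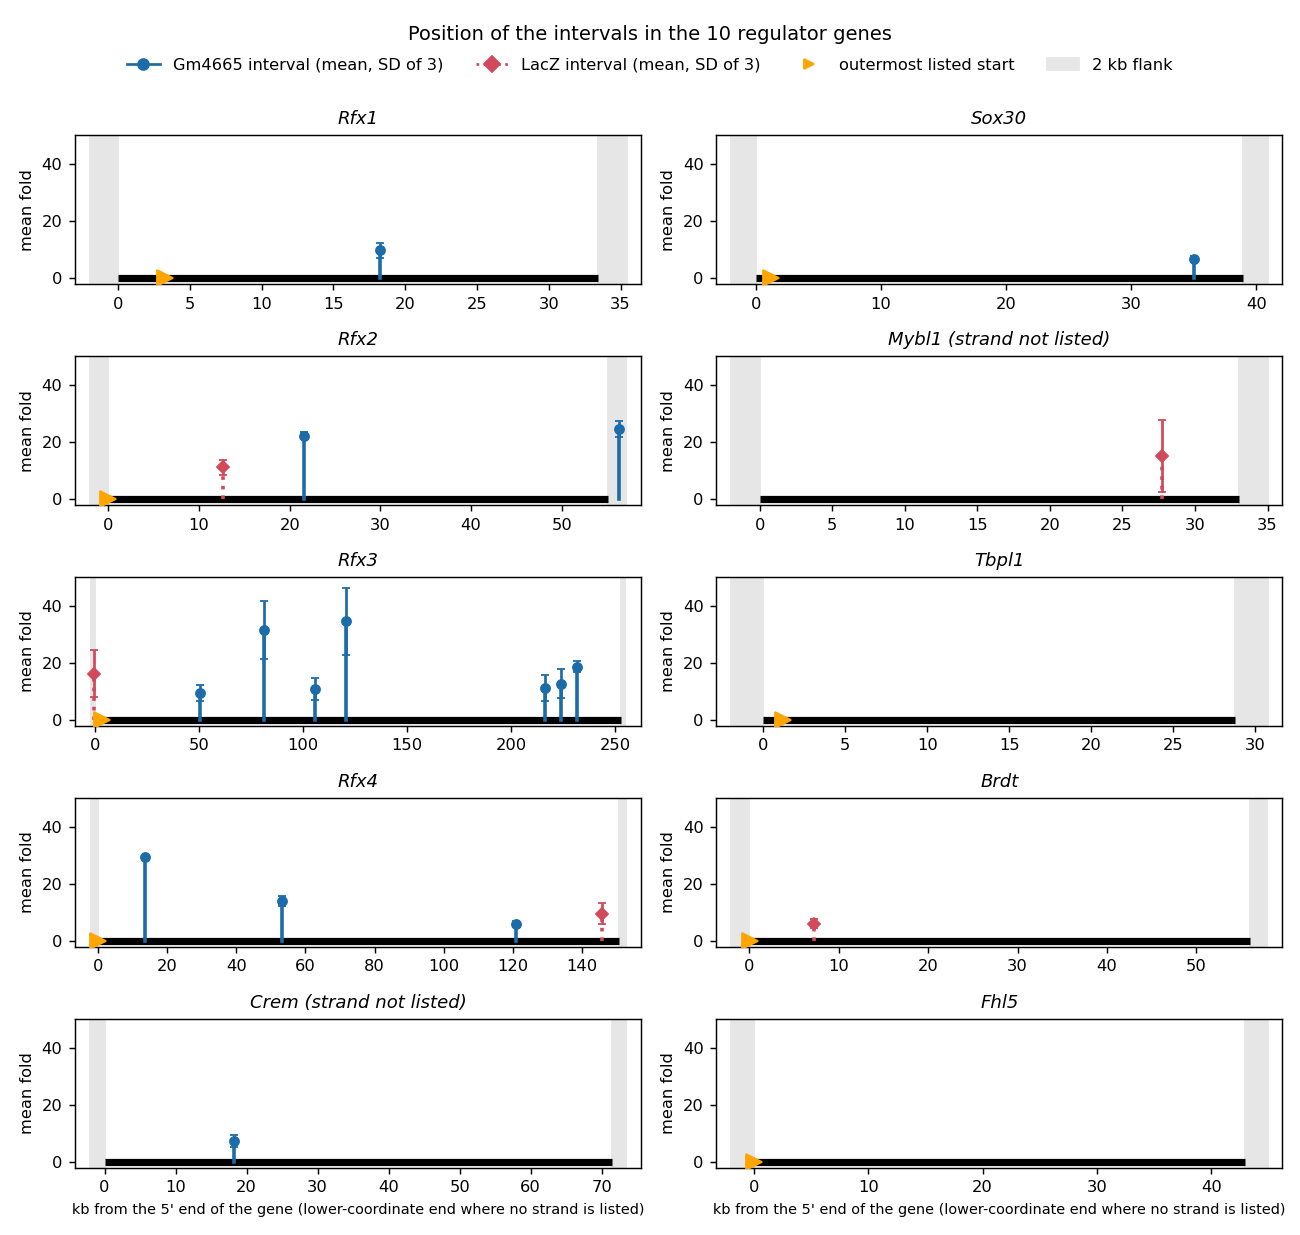
Position of each interval along the 10 genes, in kb from the 5′ end (from the lower-coordinate end for Crem and Mybl1, whose strand is not listed), with mean fold over input on the vertical axis. Circles are Gm4665 and diamonds LacZ intervals, bars are the SD of 3 replicates, arrows mark the outermost listed start and grey zones the 2 kb flanks; 14 of 15 Gm4665 intervals lie inside a gene and none at a start.

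Rfx3 carried the most intervals and the highest mean fold over 3 replicates. Without replicate 1 an Rfx4 interval led, with a mean of 29.0 against 28.4 at most in Rfx3. RFX3 is best known for the control of cilia formation. The gene (ID 19726, chromosome 19, 27761721 to 28014669, minus strand) held 7 Gm4665 intervals, lettered a to g by rising coordinate. Among 433 protein-coding genes of 200 to 300 kb the median was 4 intervals, and 18.7% had at least 7. Near the middle of the gene, interval d (chr19:27893271-27894338) had folds of 48.1, 27.9 and 27.8 (mean 34.6 ± 11.7, SD, n = 3). Replicate 1 stood above the other 2, and the interval lay at the 95.8th percentile of the list by mean fold. Toward the 5′ side, interval f (chr19:27932719-27933915) had 37.8, 19.8 and 37.0 (mean 31.5 ± 10.2, SD, n = 3), with replicate 2 the low value. Both exceeded the list medians of 11.4, 8.50 and 10.3 in every replicate.

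Of the Rfx3 intervals, 3 formed a group in the 3′ part of the gene, 6958 and 7118 bp apart, and 94.3 kb from the next. Interval a (chr19:27782337-27783349), the closest to the 3′ end, had folds of 20.6, 16.7 and 18.6 (mean 18.6 ± 1.94, SD, n = 3). Intervals b and c were weaker and less even. In b the folds were 14.7, 6.96 and 16.9 (mean 12.8 ± 5.20) and in c 12.9, 6.12 and 14.8 (mean 11.3 ± 4.57; SD, n = 3 each). In both, replicate 2 lay below its list median of 8.50 while replicates 1 and 3 lay above theirs. Between the strong pair d and f, interval e had 15.4, 9.18 and 8.22 (mean 10.9 ± 3.90, SD, n = 3). Interval g, nearest to the start at 46.6 kb, had 12.6, 7.66 and 8.28 (mean 9.52 ± 2.70, SD, n = 3). The LacZ interval at Rfx3 (chr19:28014596-28015582) lay across the outer 5′ end of the annotated span, with 25.1, 9.09 and 14.4 (mean 16.2 ± 8.16, SD, n = 3).

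Rfx4 held 3 Gm4665 intervals, with the highest folds on the 5′ side and the lowest on the 3′ side. RFX4 is a brain and testis member of the family. The gene (ID 71137, chromosome 10, 84756036 to 84906538, plus strand) is 151 kb long, and 42.0% of protein-coding genes of 100 to 200 kb had at least 3 intervals. Interval a (chr10:84769075-84770401), 13.0 kb inside the outer start, had folds of 29.9, 28.7 and 29.2 (mean 29.3 ± 0.609, SD, n = 3). Its coefficient of variation of 2.08% was the lowest of the 15, beside a list median of 21.9%. Interval b (chr10:84808933-84809581), which also lies in the lncRNA gene Gm40728, had 15.0, 11.9 and 14.8 (mean 13.9 ± 1.74, SD, n = 3). In interval c (chr10:84876737-84877030) the values were 5.58, 5.09 and 7.25 (mean 5.97 ± 1.13, SD, n = 3), the lowest mean of the members. Each of the 3 replicates gave the order a, b, c, with no overlap of their ranges. The LacZ interval, 4519 bp inside the 3′ end, had 13.7, 7.90 and 6.92 (mean 9.51 ± 3.67, SD, n = 3), at the 16.7th percentile of its list.

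At Rfx2, the RFX gene with an established need in spermatid maturation, 2 Gm4665 intervals of similar fold were listed. The gene (ID 19725, chromosome 17, 56775897 to 56831008, minus strand) spans 55.1 kb, and 35.2% of protein-coding genes of 50 to 100 kb had at least 2. Interval a (chr17:56774186-56775279) began 618 bp beyond the 3′ end and had folds of 27.9, 22.6 and 23.4 (mean 24.6 ± 2.82, SD, n = 3). It lay 2052 bp from the neighbouring gene Prr22, a neighbour named after the values were seen. Its side of Rfx2 is the 3′ end, 55.7 kb from the start. Interval b (chr17:56808823-56809934), 21.1 kb inside the start, had 23.5, 21.6 and 21.4 (mean 22.2 ± 1.16, SD, n = 3). Interval a exceeded b in 3 of 3 replicates, but by 2.46 on average, less than the larger SD. The LacZ interval inside Rfx2 had 14.3, 9.41 and 10.03 (mean 11.2 ± 2.65, SD, n = 3). A further LacZ interval outside the flank, 4249 bp upstream of the start, had 26.9, 23.4 and 19.8 (mean 23.4 ± 3.56, SD, n = 3).

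The denominator of the fold was above the list's median at both Gm4665 intervals of Rfx2. The deposited pileup, the coverage at the summit, plus 1 and divided by the replicate 1 fold is, under the usual MACS2 definition of fold, the local background plus 1. The pileup follows replicate 1: this quotient took its lowest value, within a fraction of 0.0005, in 47.6% of Gm4665 intervals, against 0.00258% when replicate 2 or 3 was used. The lowest quotient in the list was 2.93 and the median 2.97. It was 3.70 at Rfx2 a, a value that 23.0% of the list reached, and 5.49 at Rfx2 b, which 2.83% reached. Values above the median were not limited to Rfx2. They also occurred at Rfx1 (3.28, reached by 29.3%), Rfx3 c and e (3.25 each), Sox30 (3.20), Rfx4 a (3.11) and Rfx4 c (3.05). At Rfx3 d the quotient was 2.93. The pileup at Rfx2 b was 128 and at Rfx3 d 140, a small difference beside that of their replicate 1 folds, 23.5 and 48.1. In the LacZ list the Rfx2 interval had 3.85, reached by 9.76%, beside a median of 2.56. The LacZ intervals of Brdt (3.14, reached by 21.1%), Rfx3 (2.87, 38.4%) and Rfx4 (2.70, 41.4%) were also above that median.

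Rfx1 held a single Gm4665 interval of middling fold. RFX1 is a widely expressed member of the family. The gene (ID 19724, chromosome 8, 84063564 to 84097001, plus strand) had it at chr8:84081295-84082357, 14.5 kb past the listed start and near the middle of the gene. Folds were 12.8, 7.79 and 8.78 (mean 9.79 ± 2.65, SD, n = 3), at the 48.6th percentile. The authors' list holds this interval in 4 rows, which differ in replicates 2 (5.69 or 7.79) and 3 (8.05 or 8.78), and the higher fold was kept. With the lower folds the mean was 8.85 ± 3.62 (SD, n = 3). The nearest LacZ interval lay 24052 bp from the gene.

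Crem had an interval of low fold, and its coactivator gene Fhl5 had none to rank. Crem (ID 12916, chromosome 18, 3266354 to 3337773) held 1 Gm4665 interval, from 3284338 to 3284851, with folds of 9.55, 5.10 and 7.40 (mean 7.35 ± 2.22, SD, n = 3). Every replicate was below its list median, and the interval lay at the 26.3rd percentile. A further Gm4665 interval fell just outside the 2 kb flank, 2102 bp from the lower end of the gene, with 8.85, 7.82 and 9.05 (mean 8.57 ± 0.657, SD, n = 3). Fhl5 (ID 57756, chromosome 4, 25199907 to 25242852, minus strand) held no interval of either list. The closest Gm4665 interval is the one 3176 bp upstream given above, and the closest LacZ interval was 354441 bp away.

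Sox30 held 1 weak Gm4665 interval. In this gene (ID 214105, chromosome 11, 45979069 to 46017992, plus strand) it ran from 46013933 to 46014228, 3764 bp inside the 3′ end and 33.6 kb from the start. Folds were 7.18, 5.43 and 7.40 (mean 6.67 ± 1.08, SD, n = 3), all below the list medians, at the 18.1st percentile. The nearest LacZ interval lay 37601 bp from the gene.

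Mybl1, Brdt and Tbpl1 held no Gm4665 interval. Mybl1 (ID 17864, chromosome 1, 9667407 to 9700439) held a LacZ interval from 9694660 to 9695560, with folds of 29.2, 5.46 and 10.4 (mean 15.0 ± 12.6, SD, n = 3). Replicate 1 decided that mean: without it the value was 7.92. Its nearest Gm4665 interval lay 42969 bp away. Brdt (ID 114642, chromosome 5, 107331116 to 107387061, plus strand) held a LacZ interval 6939 bp past the start, with 7.64, 5.91 and 4.62 (mean 6.06 ± 1.52, SD, n = 3). Only 1.26% of LacZ intervals were lower by mean fold. The Gm4665 interval nearest to Brdt was 89638 bp away. Tbpl1 (ID 237336, chromosome 10, 22703877 to 22732666, minus strand) had neither, and its nearest Gm4665 interval, 20103 bp away, had a mean fold of 4.70 ± 1.90 (SD, n = 3). Of protein-coding genes of 25 to 50 kb, 41.3% likewise held no interval of either list.

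**Figure D3:**
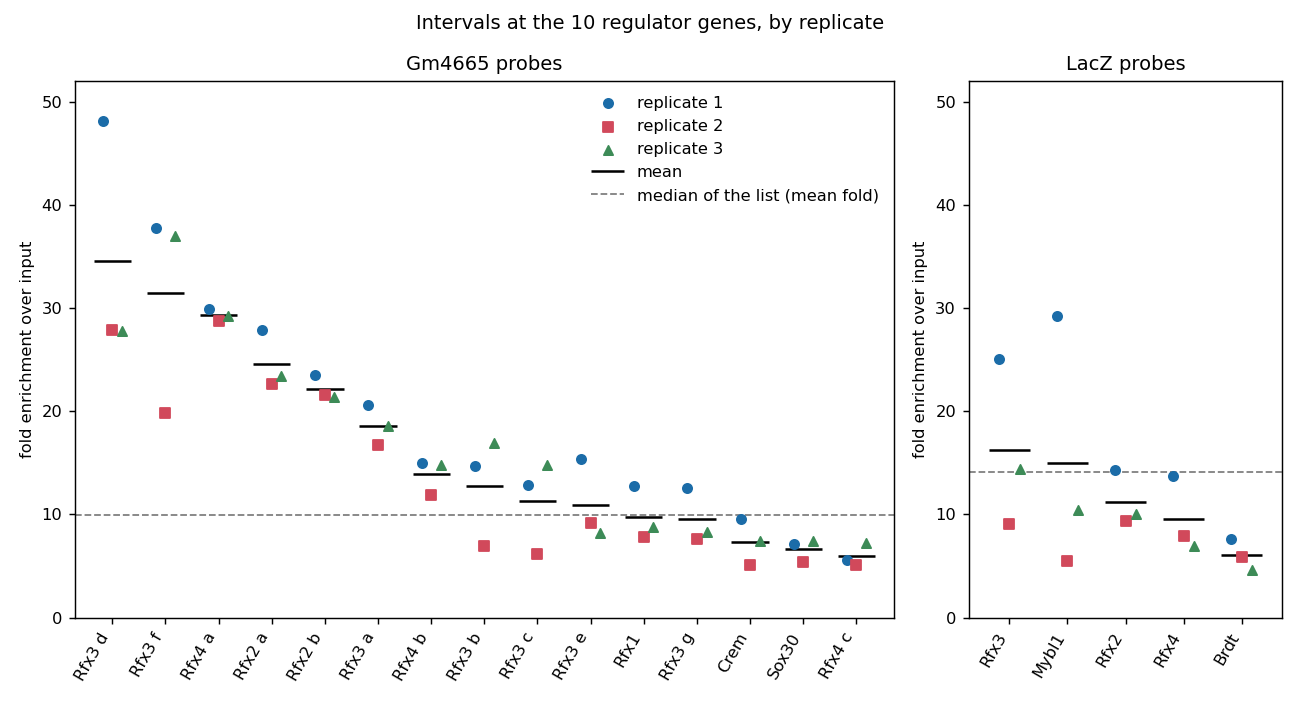
Fold enrichment over input (vertical axis) in each of 3 replicates for the 15 Gm4665 intervals and 5 LacZ intervals of the members, ordered by mean (black bars); letters number a gene's intervals by rising coordinate and dashed lines mark the median mean fold of each list, 9.99 and 14.1. Rfx3 d reaches 48.1 in replicate 1, and replicate 1 is the highest of the 3 in 11 of 15 Gm4665 and 5 of 5 LacZ intervals.

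Ordered by mean fold, the 15 Gm4665 intervals ran from 34.6 at Rfx3 d to 5.97 at Rfx4 c, with a median of 12.8 beside 9.99 over the whole list. In 3 of 14 neighbouring pairs the gap exceeded the larger SD. These were Rfx4 a above Rfx2 a, Rfx2 b above Rfx3 a, and Rfx3 a above Rfx4 b, each with the same order in 3 of 3 replicates. The first 3 intervals, Rfx3 d, Rfx3 f and Rfx4 a, did not differ beyond their spread. The same holds for each neighbouring pair from Rfx4 b down to Rfx4 c. In the LacZ list none of the 4 neighbouring pairs differed beyond the larger SD.

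Within-list percentiles put replicates of different scale on 1 footing. Of the 15 intervals, 10 lay above the middle of the Gm4665 list by mean fold, and 3 (Rfx3 d, Rfx3 f and Rfx4 a) lay in its top 10%. Rfx2 a reached the 89.2nd, 91.2nd and 87.0th percentiles in replicates 1, 2 and 3. Rfx3 c spread widest, at the 57.8th, 25.5th and 69.8th. Of the 5 LacZ intervals 2 lay above the middle of their list and none in its top 20%. Replicate 1 was the highest of the 3 in 56.3% of all Gm4665 and 95.9% of all LacZ intervals, so replicate 1 leads most often in either list as a whole.

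**Figure D4:**
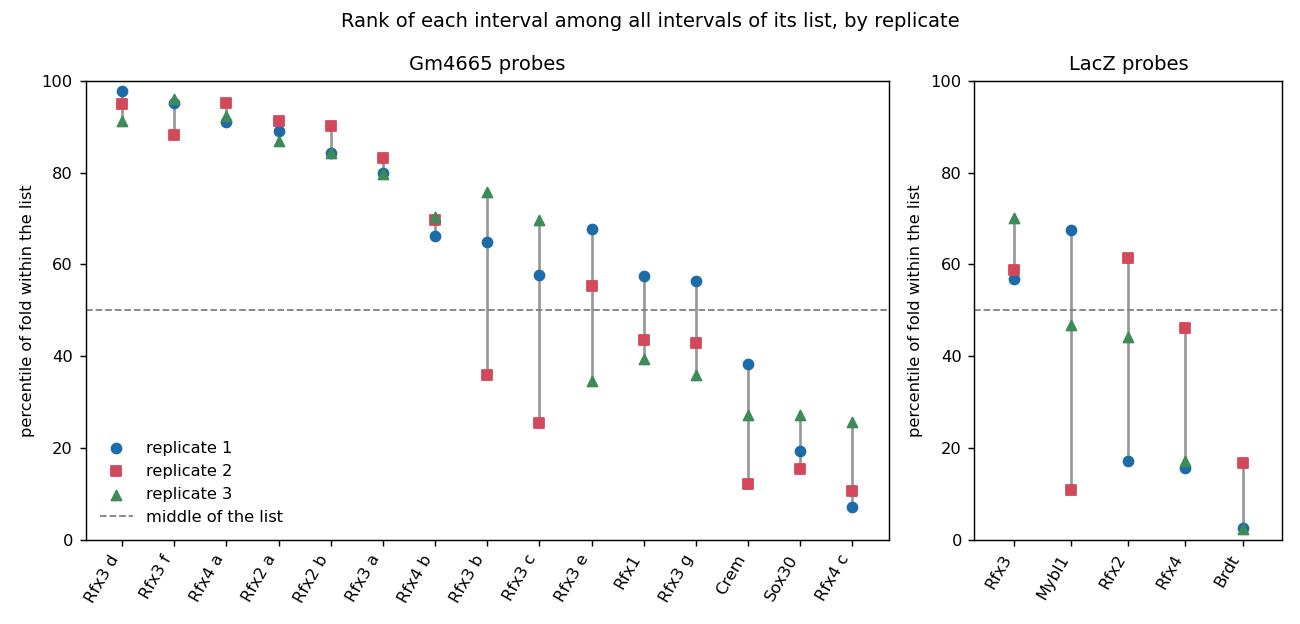
Percentile of each member interval among all intervals of its own list (vertical axis), computed separately in the 3 replicates, with grey lines joining the lowest and highest. The 6 leading Gm4665 intervals stay at or above the 79.8th percentile in every replicate, while Mybl1 in the LacZ list runs from the 10.8th to the 67.5th.

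The genes whose strongest Gm4665 interval was most like Rfx3 d were sought among 8563 protein-coding genes with an interval. The measure was Euclidean distance of log2 fold over the 3 replicates. Lman1 was nearest (0.0299), with folds of 48.8, 27.6 and 28.0, followed by Csgalnact1 and Klf13 (0.170 each). Their means were 34.8 ± 12.1, 36.5 ± 11.2 and 34.7 ± 9.66 (SD, n = 3 each).

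Relatives and partners of the members were counted from a fixed list of 29 genes. Of these, 14 (48.3%) held a Gm4665 interval and 5 (17.2%) a LacZ interval, at a median gene length of 35.2 kb. For comparison, 50.4% and 17.7% of protein-coding genes of 25 to 50 kb did. Of the 4 further RFX genes, 3 held one (Rfx5, Rfx6 and Rfx7, but not Rfx8), which makes 7 of 8 in the family Rfx1 to Rfx8. Most of the family is longer than 50 kb. Rfx2, Rfx6, Rfx7 and Rfx8 fall in the class of 50 to 100 kb, where 69.0% of protein-coding genes held one. For Rfx4 and Rfx3 the class shares were 87.5% and 94.7%, and for Rfx1 50.4%. Rfx5, at 10.9 kb, falls in none of the length classes counted here. The family count was not tested. Neither of the TATA-binding protein genes, Tbp and Tbpl2, held a Gm4665 interval, and Tbp held 2 LacZ intervals. Sox5 and Sox6, genes of 954 and 570 kb, held 16 and 6 Gm4665 intervals, with highest means of 40.2 and 39.5. With LacZ probes they held 5 and 1, with highest means of 45.9 and 12.9. Both genes are longer than any length class given here, so these counts have no background of like length.

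At gene ends, 6 of the 29 relatives had a Gm4665 interval, beside the 12.6% of all genes and 14.2% of protein-coding genes given above. The leading 4 by fold were Sox17, Fhl2, Mybl2 and Gtf2a1. Sox17, an endoderm regulator, had 15.3, 8.84 and 11.5 (mean 11.9 ± 3.27, SD, n = 3), 1714 bp from an end. Fhl2, which encodes a relative of FHL5, had 6.96, 8.37 and 11.1 (mean 8.81 ± 2.11, SD, n = 3), 591 bp from a listed start. Deeper inside Fhl2, 9433 bp from the nearest end, a stronger interval had 55.4, 40.3 and 49.7 (mean 48.4 ± 7.60, SD, n = 3). That mean is above the 34.6 of Rfx3 d, the highest of the members. For Mybl2, a cell-cycle MYB gene, the mean was 8.52 ± 2.25, and for Gtf2a1, a subunit gene of the general factor TFIIA, 7.74 ± 0.783 (SD, n = 3 each). A LacZ interval lay at an end of Creb1, with folds of 26.1, 7.73 and 8.65 (mean 14.2 ± 10.4, SD, n = 3). The same end of Creb1 had a Gm4665 interval 388 bp away, with 5.06, 6.24 and 8.22 (mean 6.51 ± 1.60, SD, n = 3).

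Of 15 genes listed as spermatid genes downstream of these regulators, 2 (13.3%) held a Gm4665 interval and 1 (6.67%) a LacZ interval. Whether each depends on a member was not tested here. Among protein-coding genes of 5 to 10 kb, the class that holds the median length of the 15, the shares were 19.7% and 6.76%. Prm1, Prm2, Tnp1 and Tnp2, the protamine and transition protein genes, held none of either list. They are short, and the median length of the 15 was 7.53 kb. The acrosomal genes Spaca1 and Acrv1 were the 2, with intervals 1954 bp beyond the 3′ end of Spaca1 and 1057 bp upstream of the start of Acrv1. Folds were 23.2, 15.6 and 21.4 at Spaca1 and 14.3, 13.6 and 14.0 at Acrv1. Ace, whose testis form is made in spermatids, held the LacZ interval, 296 bp past its listed start, with 25.5, 10.1 and 8.69 (mean 14.7 ± 9.32, SD, n = 3).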

How the data were processed

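The values are the linear fold enrichment over input, a ratio deposited by the authors for each replicate, in 1 list of intervals per probe set. The lists were made with MACS2 per the file names, in mm10 per the submitters' processing notes. No header or label states version, settings, aligner or how replicates were joined. A deposited pileup signal at the summit accompanies each interval. Library depth is unknown. Repeated rows (649 and 165) were joined with the highest fold kept, and 116 and 25 intervals on other sequences were left out. Gene spans, starts and promoter sequences came from RefSeq tables of GRCm38.p6. Of 49943 genes, 340 starting below 3 Mb were left out, since they appear to carry scaffold coordinates. An overlap of 1 bp counted. The lists were normalized separately, so no test was made across them, and all values are descriptions. Shares of genes with an interval give the background. Members, gene lists and motifs were chosen with earlier results of these data known. Named were all members, listed relatives by gene-end fold, genes under a member's interval and the 3 genes most like the strongest. Other genes were named after their values were seen. Counting was tested on simulated data (400 of 400 genes recovered), with Python 3.11.15 and pandas 2.3.3. The values of 1 listed relative are not reported here.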

Additional observations from a re-analysis of the deposited data

How the results depend on the processing

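With a fold of at least 10 in every replicate, 3 members kept a Gm4665 interval (Rfx2, Rfx3 and Rfx4), 7 Gm4665 intervals (8.72 per Mb) remained, LacZ intervals and members with one numbered 0, and the background share of genes was 13.0%. With only the 9448 strongest Gm4665 intervals, 3 members (the same genes), 6 intervals (7.47 per Mb) and a background of 9.76% remained. Both follow from the fewer intervals kept. These 2 backgrounds are over all RefSeq genes and are not matched to the members by length. No density of coding windows is given beside 8.72 and 7.47 per Mb. Gene-end windows of 5 kb marked 4 members, adding Crem, Sox30 and Fhl5, beside 24.1% of all genes and 27.8% of protein-coding genes (backgrounds added after seeing the data). The background share was 22.0% without flanks, 43.2% with 10 kb flanks, where Fhl5 became the 7th member, 26.3% by midpoints, 26.3% with a fold of at least 4, and 39.3% in protein-coding genes. Leaving out each replicate, the median mean fold of member intervals was 11.9 to 14.9 with Gm4665 and 7.92 (without replicate 1) to 12.2 with LacZ probes. For single intervals, 1 of 60 such values moved by over 1.5 times: LacZ at Mybl1, 15.0 to 7.92. No paired analysis was possible because no member interval has a value in both lists, which were normalized separately, and no result comes from a test. Library depth is unknown, so no counting error can be given for weak intervals.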
